A study of Mus musculus with 36 samples.

Results

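The Ikaros series was compared with the Control series at 12 and 18 h after addition of 4-hydroxytamoxifen (4-OHT) in B3, a mouse pre-B cell line, by Methyl-seq, a reduced representation bisulfite assay (RRBS) of CpG methylation. Of the 36 samples of the time course, the 12 samples collected at these time points were used, 6 per series, with 3 replicates at each time point. B3 cells of the Ikaros series carry a retroviral vector (MSCV) for HA-tagged Ikaros fused to the ERt2 hormone-binding domain, followed by an IRES and GFP. The Control series carries the same kind of vector with ERt2 and GFP but without Ikaros. Both series received 0.5 µM 4-OHT, which moves the ERt2 fusion into the nucleus. Each series is 1 transduced and GFP-sorted pool of cells, so a difference between the pools and an effect of Ikaros cannot be told apart at 12 and 18 h. Replicates 1, 2 and 3 were batches 1, 3 and 4, and the 12 and 18 h flasks of a series and batch came from 1 expanded culture.

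Ikaros, encoded by Ikzf1, is a zinc finger transcription factor that drives pre-B cells from the proliferating to the resting stage, and it works with chromatin complexes such as NuRD. Cytosine methylation in mammals lies mostly at CpG dinucleotides. CpG-rich promoters are usually unmethylated, gene bodies and intergenic DNA are usually methylated, and regions at intermediate levels often differ between alleles or between cells of a culture. RRBS cuts DNA at CCGG with MspI and so reads mainly CpG-rich regions.

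The values are methylation levels in percent, smoothed by the authors along the DNA, and all differences are Ikaros minus Control in percentage points. Listed positions at most 100 bp apart were joined into 18009 clusters with a median of 46 positions and 388 bp. The level of a cluster in a sample was the mean over its positions with a value in all 12 samples. This was possible for 17788 clusters, and the other 221 had no such position. Coordinates are those of GRCm38 (mm10). The read depth behind each level is unknown. Empty positions made up 0.139% to 1.07% per sample in the Ikaros series and 0.183% to 2.92% in the Control series. Levels at exactly 0 or 100% made up 26.9% to 41.2% of values in the Ikaros series and 23.2% to 35.2% in the Control series, with means of 33.2% and 27.03% (two-sided exact permutation p = 0.075). Pearson correlations between the cluster levels of any pair of the 12 samples ran from 0.994 to 0.998, across clusters that are not independent replicates.

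Promoter levels were read at marker genes of the labelled cell type and of other cell types. Most protein-coding promoter clusters were unmethylated, 8047 of 13653, so an unmethylated marker promoter does not by itself identify the cell type. Of 10 markers of pre-B lymphocytes, 3 had a promoter cluster, and all 3 were unmethylated in both series: Pax5 with 1.01% ± 0.276 in Ikaros and 0.822% ± 0.211 in Control, Ebf1 with 0.0668% ± 0.164 and 0.324% ± 0.277, and Vpreb1 with 0.365% ± 0.273 and 0.247% ± 0.133 (SD, n = 6 each). Cebpa, which encodes a factor of myeloid cells, had 3 promoter clusters between 97.5% and 98.5% in both series, and Tal1, a factor of erythroid cells, had 97.8% ± 0.263 and 97.3% ± 1.30. The erythroid gene Klf1 was an exception among the other cell types, with 1.25% ± 0.656 and 1.05% ± 0.859. So was 1 of 3 clusters checked at the T cell gene Gata3, with 10.2% ± 3.74 and 10.1% ± 1.07. The others of these 3 had mean levels of 39.3% to 97.4%. Further Gata3 clusters, outside these 3, had 93.7% and 94.2% in Ikaros and 92.8% and 92.1% in Control.

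Among the samples of other times, which are used only for comparison, the library labelled Control 24 h replicate 2 went against its label. At 136 of the 182 clusters that differed at 12 and 18 h and had values in all samples, it was nearer to the Ikaros than to the Control mean, against 19 to 32 in 10 other Control samples. It had 72.3% at Mllt3, where the other Control samples of 24 h had 37.4% and 31.6%, and 71.0% at Ephb6, where they had 40.04% and 37.8%. Replicate 1 of Control at 0 h, with 11.6% empty positions, was nearer to Ikaros at 50 of the 182 clusters. It had 74.97% at Mllt3 against 32.6% and 36.9% in the other 0 h samples, but 6.99% at Nol4l against 7.18% and 7.21%. Values that rest on these samples are given with and without them.

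The reference sequences of 5 of the most different clusters, none in an untranslated region, are shown, and only part of the bases hold measured positions. They come from the RefSeq copy of GRCm38, plus strand, 5′ to 3′. Capitals mark the bases of listed positions with a value in all 12 samples, the C for the plus strand and the G for the minus strand of a CpG. The first 3 had higher and the last 2 lower levels in the Ikaros series. Mllt3 is chr4:88031803-88032059, Nol4l is chr2:153443751-153444050, and Tnrc18 is chr5:142814139-142814438. The intergenic cluster near Gfra2 is chr14:70888640-70888884, and Plxnb2 is chr15:89181096-89181290. For Nol4l and Tnrc18 these are the central 300 bases of longer clusters.
Mllt3: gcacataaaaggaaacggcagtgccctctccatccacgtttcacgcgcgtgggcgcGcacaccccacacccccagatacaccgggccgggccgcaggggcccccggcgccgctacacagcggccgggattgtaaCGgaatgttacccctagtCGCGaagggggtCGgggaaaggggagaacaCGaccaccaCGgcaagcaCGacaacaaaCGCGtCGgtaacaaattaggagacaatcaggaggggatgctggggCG
Nol4l: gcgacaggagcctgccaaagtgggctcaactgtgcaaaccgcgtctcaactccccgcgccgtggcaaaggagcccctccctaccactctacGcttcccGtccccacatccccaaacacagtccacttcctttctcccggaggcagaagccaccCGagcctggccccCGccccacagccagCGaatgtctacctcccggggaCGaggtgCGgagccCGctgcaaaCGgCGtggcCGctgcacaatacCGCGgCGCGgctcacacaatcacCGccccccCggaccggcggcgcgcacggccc
Tnrc18: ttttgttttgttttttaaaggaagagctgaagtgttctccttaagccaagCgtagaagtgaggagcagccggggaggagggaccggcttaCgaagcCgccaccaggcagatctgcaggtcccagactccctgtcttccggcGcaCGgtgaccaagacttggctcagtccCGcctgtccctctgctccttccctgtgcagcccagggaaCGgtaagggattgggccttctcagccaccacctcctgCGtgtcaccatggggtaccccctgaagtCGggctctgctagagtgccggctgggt
Near Gfra2: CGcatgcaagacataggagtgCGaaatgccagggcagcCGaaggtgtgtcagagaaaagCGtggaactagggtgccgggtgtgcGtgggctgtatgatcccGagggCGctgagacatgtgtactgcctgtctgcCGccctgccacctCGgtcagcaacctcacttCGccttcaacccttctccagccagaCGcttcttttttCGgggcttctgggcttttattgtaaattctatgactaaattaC
Plxnb2: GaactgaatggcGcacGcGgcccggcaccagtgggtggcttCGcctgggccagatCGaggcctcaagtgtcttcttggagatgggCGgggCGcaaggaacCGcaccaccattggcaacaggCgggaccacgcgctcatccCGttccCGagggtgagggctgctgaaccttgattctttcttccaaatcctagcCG

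At 188 of the 17788 clusters (1.06%) the level differed between the series at 12 and 18 h, and most of these were higher in the Ikaros series. There were 148 clusters higher (0.832%) and 40 lower (0.225%) in Ikaros. The difference was at least 5 points at 109 clusters (0.613%), of which 97 were higher and 12 lower. Without any 1 of the 12 samples, 97 to 124 higher and 20 to 30 lower clusters were called, and 71 to 95 of 5 points or more. Without Ikaros 12 h replicate 2 there were 97 higher and 20 lower clusters and 71 of 5 points or more. Higher calls also numbered 97 without Control 12 h replicate 1 and 97 without Control 12 h replicate 2. The lower calls numbered 21 without Ikaros 12 h replicate 1, 22 without Ikaros 18 h replicate 3, 23 without Control 12 h replicate 1, 24 without Control 18 h replicate 2, 25 without Ikaros 18 h replicate 1 and 26 without Control 18 h replicate 1. On M-values, the log2 ratio of methylated to unmethylated level, 21 of 123 calls were lower, and with the share of levels at exactly 0 or 100% as a covariate 46 were higher and 8 lower. The difference was at least 10 points at 61 higher and 4 lower clusters. The median difference was 7.63 points for the higher and -3.23 points for the lower clusters, against 0.08 points over all 17788. The 6 Ikaros and 6 Control levels did not overlap at 171 of the 188, while 348 of all clusters (1.96%) did not overlap.

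The clusters were tested with limma on the cluster levels, with the time point as a factor and a variance trend, and called at a Benjamini-Hochberg adjusted p under 0.05. At an unadjusted p under 0.05 there were 1254 higher and 544 lower clusters. The median size of the 188 differences was 5.86, 6.60 and 6.12 points in batches 1, 3 and 4. All had the same direction in each batch and at each time point, which the selection of the clusters on these 12 samples largely fixes. When the 12 and 18 h samples of a culture were averaged to 3 values per series, 14 clusters were called, 13 of them among the 188. This fit also has fewer values. A fit of all 12 samples with a correlation within series and replicate number, estimated at -0.0353, called 220 clusters, including all 188. With the share of levels at exactly 0 or 100% as a covariate, 54 were called, 51 of them among the 188.

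By annotation and level, the differing clusters lay mostly at promoters, as did the clusters measured. Promoters, defined as 1000 bp either side of a transcription start, held 148 of the 188 clusters for protein-coding genes, or 1.08% of the 13653 tested there. Promoters of other genes held 7 (0.906%), coding exons 7 (0.493%), introns 5 (0.812%), noncoding exons 2 (2.44%) and intergenic DNA 19 (1.59%). None of the 52 clusters in untranslated regions was called by limma (9 at an unadjusted p under 0.05). On the X chromosome 5 of 386 clusters were called (1.30%).

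The share of higher calls was not the same in each level class, which was set by the mean level over the 12 samples. Among unmethylated clusters, under 20%, 45 were higher and 33 lower (0.909% of 8581). Among partly methylated clusters, 20 to 80%, 47 were higher and 2 lower, which is 4.56% of 1074. Among methylated clusters, over 80%, 56 were higher and 5 lower (0.750% of 8133). On M-values the calls were 18 higher and 17 lower among unmethylated clusters and 40 higher and 0 lower among partly methylated ones. With class limits of 10 and 90%, 33 unmethylated clusters were higher and 27 lower, and 87 partly methylated clusters were higher and 10 lower. No test of the direction between classes was made. At protein-coding promoters the lower clusters were nearly all unmethylated, 27 of 28, while of the 120 higher ones 41 were unmethylated, 35 partly methylated and 44 methylated. The median difference of the higher clusters was 14.97 points in the partly methylated class, 6.19 in the methylated class and 3.25 in the unmethylated class. The size that can be called follows the error, with a median SE of the difference of 3.36, 0.821 and 0.222 points in these classes. Over all clusters tested the median differences were 2.24, 0.229 and 0.0279 points.

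**Figure D1:**
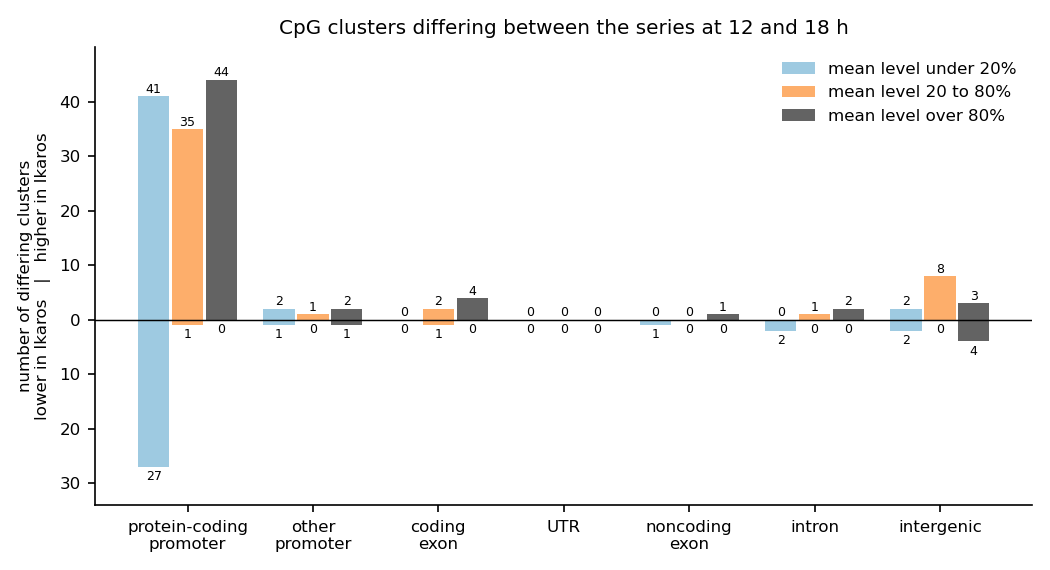
Number of CpG clusters called between the series at 12 and 18 h (limma, adjusted p under 0.05), by annotation on the horizontal axis and by mean level class in colour. Bars above 0 count the 148 clusters higher in Ikaros and bars below 0 the 40 lower ones, and the lower bar of unmethylated protein-coding promoters holds 27 of those 40.

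The mean over all clusters was also higher in Ikaros. It was 47.3% ± 0.163 in the Ikaros series and 47.0% ± 0.163 in the Control series (SD, n = 6 each), a difference of 0.384 points, and the ranges of 47.2% to 47.6% and 46.7% to 47.2% overlapped. The two-sided exact permutation test over the 400 assignments within time points gave p = 0.015 (adjusted p = 0.0275 over 11 sets of clusters), and on M-values the exact p was 0.065. This test takes the 12 and 18 h flasks of a culture as independent, which they are not. With 1 mean per culture, the 3 Ikaros cultures were at 47.3% to 47.5% and the 3 Control cultures at 46.9% to 47.1%, without overlap, and the exact permutation p was 0.1, the smallest that 20 assignments of 3 against 3 can give. The partly methylated clusters differed most, with levels from 52.2% to 54.1% in Ikaros and from 46.9% to 51.4% in Control. All 6 Ikaros samples were above all 6 Control samples there. The difference was 3.03 points, with an exact p = 0.005, the smallest that 400 assignments can give (adjusted p = 0.0275). Per culture the levels were 52.3% to 53.8% in Ikaros and 48.6% to 50.6% in Control (exact p = 0.1). Methylated clusters differed by 0.368 points (exact p = 0.005, adjusted p = 0.0275, but exact p = 0.055 on M-values) and unmethylated clusters by 0.0676 points (exact p = 0.29, adjusted p = 0.319). The level classes were added to this test after the calls were seen. At the 1019 partly methylated clusters complete in all 36 samples, the difference was 2.73 points at 0 h, 2.46 at 2 h, 2.78 at 6 h, 3.71 at 12 h, 2.44 at 18 h and 3.88 at 24 h. Without the Control samples that stood apart it was 2.22 at 0 h and 3.09 at 24 h.

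Among the annotation classes, the mean level of promoters of protein-coding genes differed by 0.381 points (exact p = 0.015), that of coding exons by 0.354 (exact p = 0.01) and that of intergenic clusters by 0.513 (exact p = 0.01), each with an adjusted p = 0.0275. On M-values the exact p was 0.06, 0.115 and 0.05 for these classes, so none was under 0.05. With 1 mean per culture the exact permutation p was 0.1 for each of these classes, the smallest that 20 assignments can give. Promoters of other genes (0.364 points, adjusted exact p = 0.055), introns (0.286, adjusted exact p = 0.0963), noncoding exons (0.381, adjusted exact p = 0.189) and untranslated regions (0.361, adjusted exact p = 0.385) did not pass.

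The cluster with the largest difference lay 754 bp from a start of Mllt3, which encodes AF9, a chromatin reader of the transcription elongation machinery in blood stem cells. The Ikaros levels ran from 62.6% to 72.6% with a median of 68.6%, and the Control levels from 29.3% to 34.6% with a median of 32.6%. The groups were separated by a wide gap, and the difference was 35.60 points (SE 2.75, limma adjusted p = 2.1e-04). At the Nol4l promoter (chr2:153443595-153444205), the Ikaros levels ran from 31.4% to 63.3% with a median of 37.3%, and the Control levels from 4.78% to 11.4% with a median of 8.63%. A single Ikaros sample, replicate 3 at 12 h, was far above the rest, and the other 5 lay between 31.4% and 37.6%, still above every Control sample. The difference was 32.61 points (SE 4.43, limma adjusted p = 0.0054). At the Ephb6 promoter (chr6:41605257-41605789), a gene for an ephrin receptor without kinase activity, Ikaros levels were 67.4% to 79.9% (median 73.7%) and Control levels 33.4% to 50.5% (median 42.5%). The difference was 31.86 points (SE 3.29, limma adjusted p = 0.0011).

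Outside promoters, the intron cluster of Tnrc18 (chr5:142814012-142814564, 2816 bp from a start) had Ikaros levels of 81.5% to 91.2% (median 88.8%) and Control levels of 50.4% to 65.2% (median 59.4%), a difference of 28.43 points (SE 2.13, limma adjusted p = 2.1e-04). A coding exon of Zfp608, a zinc finger gene, had Ikaros levels of 38.6% to 56.6% (median 43.5%) and Control levels of 10.1% to 16.3% (median 13.7%), a difference of 31.65 points. Among the 12 clusters with the largest positive differences without overlap, 4 were intergenic. They lay 2614 bp from Zfp36 (chr7:28376448-28376641), the gene of an RNA-binding protein that destabilises cytokine mRNAs, 13786 bp from Gpr161, 8392 bp from Tspear and 1009 bp from Insm1, and their differences were 24.89, 22.33, 21.54 and 21.12 points. The cluster near Zfp36 stood out by its low level in Control, 3.702% to 11.6%, against 28.1% to 38.5% in Ikaros.

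The other promoters among the most different were also higher in Ikaros. Plekhh1 (24.93 points), Tsc22d1 (22.06), a leucine zipper regulator induced by TGF-beta, and Atxn1 (20.98), whose product binds the repressor Capicua, had no overlap between the series. So had Lhfp (20.24) and Sirpa (19.66), the gene of a CD47 receptor of myeloid cells. Lhfp was the least firm of these. Its Control level was 100% in replicate 1 at 0 h, and its adjusted p was 0.052 with the replicate block and 0.056 on M-values. Also higher in Ikaros by more than 10 points were promoters of Klf4 (16.88) and Klf2 (10.74), both Krüppel-like transcription factors, Hdac9 (13.94), a histone deacetylase, Dyrk1b (18.42), a kinase that holds cells in quiescence, and Camk1d (10.70). These 5 were named after their values were seen, and Klf2 did not pass on M-values (adjusted p = 0.11).

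**Figure D2:**
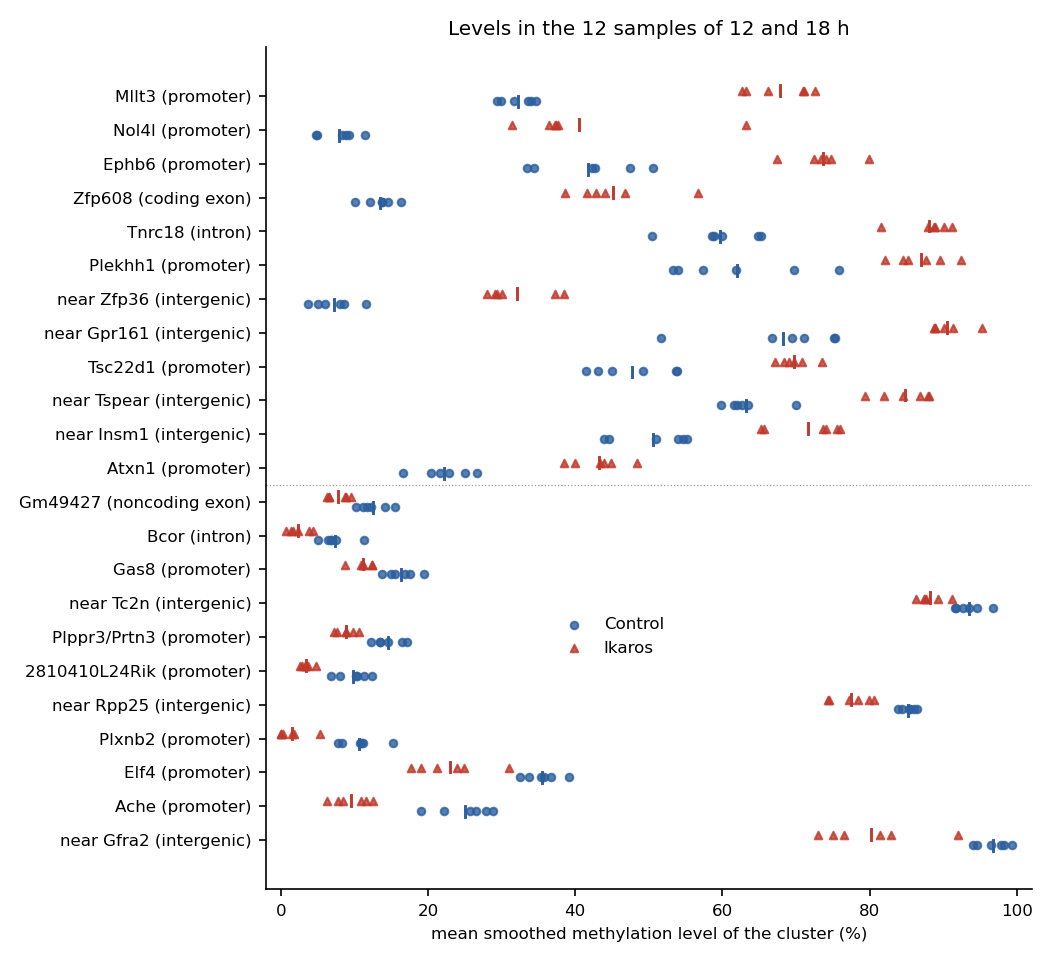
Mean smoothed methylation level in percent of the 12 clusters with the largest positive difference without overlap (top) and 11 of those with the largest negative one (bottom), for each of the 6 Ikaros (triangles) and 6 Control (circles) samples, with vertical ticks at the series means. The higher clusters differ by 20.98 to 35.60 points and the lower ones by -4.77 to -16.63 points.

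The lower clusters had smaller differences. The intergenic cluster 1236 bp from Gfra2, a receptor for neurturin, had Ikaros levels of 73.0% to 92.0% (median 79.0%) and Control levels of 94.0% to 99.4% (median 97.2%), a difference of -16.63 points (SE 2.75, limma adjusted p = 0.016). At the promoter of Ache (chr5:137287993-137288244), which encodes acetylcholinesterase, Ikaros levels were 6.24% to 12.5% (median 9.71%) and Control levels 19.0% to 28.8% (median 26.1%). The difference there was -15.43 points (SE 1.76, limma adjusted p = 0.0023).

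At the promoter of Elf4 (chrX:48462978-48463397), the gene of an ETS factor, Ikaros levels were 17.6% to 31.0% (median 22.6%) and Control levels 32.5% to 39.2% (median 35.6%). The difference was -12.57 points (SE 2.50, limma adjusted p = 0.039) and did not pass with the replicate block (adjusted p = 0.089) or on M-values (adjusted p = 0.11). At Plxnb2, which encodes a semaphorin receptor, the Ikaros levels were 0 to 5.27% (median 0.937%) and the Control levels 7.76% to 15.2% (median 10.9%). The difference was -9.19 points (SE 1.24, limma adjusted p = 0.0052). Bcor, the gene of a BCL6 corepressor on the X chromosome, had an intron cluster at 0.712% to 4.31% in Ikaros and 5.13% to 11.4% in Control, a difference of -4.95 points, with an adjusted p of 0.062 with the replicate block and 0.082 on M-values.

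The remaining lower clusters named by the rule were at the promoters of 2810410L24Rik (-6.43 points), Plppr3 and Prtn3 (-5.74), the second of which encodes a protease of myeloid granules, and Gas8 (-5.23), in an exon of Gm49427 (-4.77), and in intergenic DNA near Rpp25 (-7.76) and Tc2n (-5.27). On M-values, the calls were lost at Gas8 (adjusted p = 0.22) and at the cluster near Tc2n (adjusted p = 0.42, and 0.077 with the replicate block). Among the differing clusters named, those that did not pass with the share of levels at exactly 0 or 100% as a covariate were Plekhh1, Lhfp, Sirpa, Erg, Mycn, Gm49427, Bcor, Gas8, near Tc2n, Plxnb2, Elf4 and near Gfra2, with adjusted p from 0.051 to 0.23. None changed direction in this fit.

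The difference within a cluster mostly had 1 direction. At 112 of the 188 clusters, every position had the direction of the cluster mean, and at 71 of the 109 with 5 points or more. The levels were smoothed, so neighbouring positions are not independent. At Mllt3 the position differences ran only from 33.51 to 36.67 points over 23 positions, an even offset. At Nol4l they ran from 25.63 to 44.13 over 43 positions, and at Tnrc18 from 4.83 to 45.39 over 18 positions. Elf4 was uneven, with 21 of 23 positions lower in Ikaros and differences from -30.30 to 0.62 points. The called clusters also had a wide range of levels along their length. The median distance between the lowest and highest position mean was 23.2 points for the higher and 13.4 points for the lower clusters, against 2.57 points over all clusters and 35.7 points over all partly methylated clusters.

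**Figure D3:**
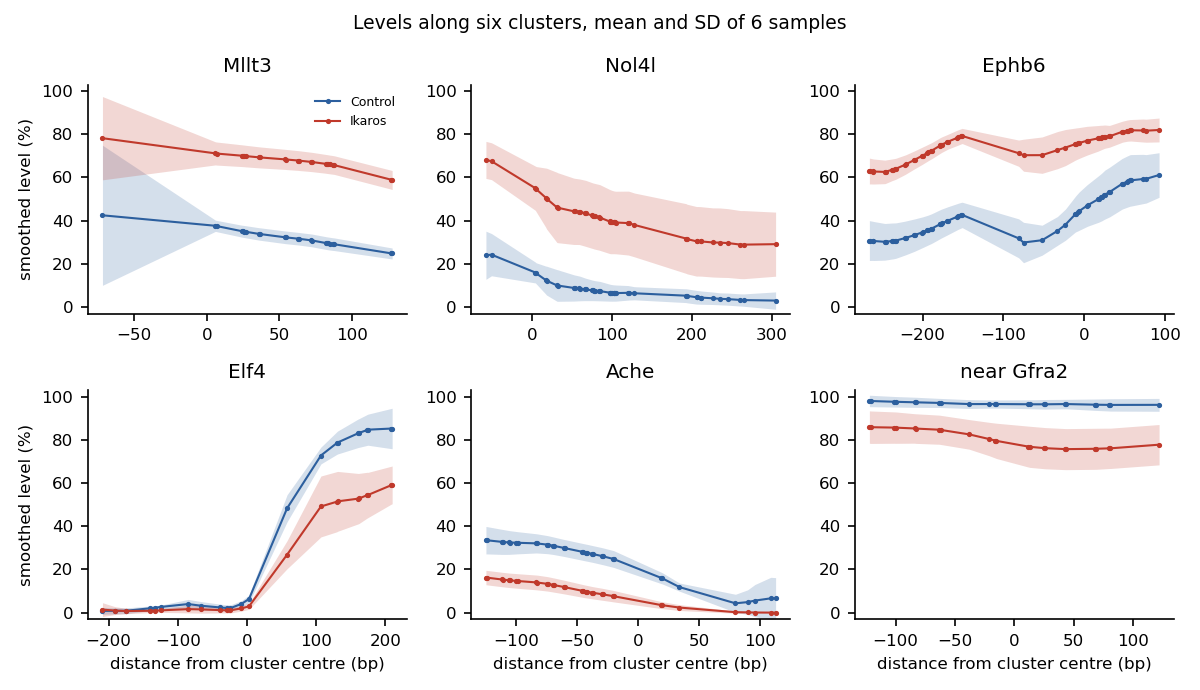
Smoothed level in percent against the distance in bp from the cluster centre for the 3 clusters with the largest positive difference without overlap (top row) and 3 of those with the largest negative one (bottom row). Lines with points are the mean over the 6 samples of each series and bands are 1 SD. The Ikaros and Control lines lie close together near 0 on the left of Elf4, cross there, and separate to its right, they do not cross in the other 5 clusters, and the first position shown for Mllt3 has a far wider band than the rest.

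Called clusters within 100000 bp of each other formed 9 pairs, 6 with the same and 3 with opposite directions. They were named after their values were seen. At the Samd4 promoter, 2 clusters 329 bp apart went opposite ways. The first (chr14:46882889-46883816) had 85.8% to 89.9% in Ikaros and 67.8% to 77.7% in Control, a difference of 14.71 points. The second (chr14:46884145-46884470) had 3.47% to 6.68% and 6.89% to 12.0%, a difference of -4.50 points (limma adjusted p = 0.0029 and 0.046, the latter 0.058 on M-values). The methylated side was thus higher and the unmethylated side lower in Ikaros, and neither overlapped. Likewise, the promoter cluster of Dbndd1 was 14.83 points higher and that of Gas8, 3291 bp away, 5.23 points lower. At Nol4l, a second promoter cluster 47835 bp away was lower by 1.41 points. Pairs of the same direction lay at Atxn1 (20.98 and 8.18 points, 896 bp apart), Plxnb2 (-3.11 and -9.19 points, 334 bp apart), Spire2 and Tubb3 (9.51 and 16.26), Slc38a3 and Sema3f (7.44 and 14.21), Ssbp3 and the intergenic DNA before it (17.44 and 14.97), and Gm8973 and Dnajc22 (2.87 and 3.84). With the replicate block, the second cluster of Atxn1 and that of Gm8973 did not pass (limma adjusted p = 0.058 each).

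The 8 lists for pre-B cells held 131 genes, not all with a tested cluster (5 of 17 for the pre-B receptor and PI3K signalling). Of the 131 genes, 2 had a called cluster. This was 2 of the 213 clusters of the lists (0.939%), near the 1.06% over all clusters, and 29 of the 213 (13.6%) had an unadjusted p under 0.05, against 10.1% over all clusters. The promoter cluster of Erg (chr16:95585465-95585729, 864 bp from a start), 1 of 40 clusters of 17 B-lineage transcription factors, had Ikaros levels of 85.4% to 94.0% (median 87.6%) and Control levels of 70.1% to 81.3% (median 74.7%). The difference was 13.19 points (SE 2.17, limma adjusted p = 0.016). The promoter cluster of Mycn (chr12:12939523-12940337), 1 of 33 clusters of the Myc network and glycolysis, had Ikaros levels of 5.23% to 9.76% (median 6.49%) and Control levels of 1.33% to 3.33% (median 1.82%), a difference of 5.08 points (SE 0.82, limma adjusted p = 0.013). Neither cluster had overlapping levels. No cluster was called by limma among 8 of the pre-B receptor and PI3K signalling (1 at an unadjusted p under 0.05), 24 of the cell cycle (3), 39 of the Notch pathway (5), 21 of the enzymes of DNA methylation (3), 23 of the Ikaros family and NuRD partners (1) or 25 of other blood lineages (3). At 1.06% over all clusters, lists of this size would hold few or no calls.

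The median difference per list ran from 0.04 to 0.24 points, against 0.08 over all clusters. The largest differences in the lists that were not called were at promoters of Tet2, which oxidises methylcytosine (60.3% in Ikaros and 44.8% in Control, difference 15.55 points, SE 6.31, limma adjusted p = 0.41), and Ikzf3, a relative of Ikaros (37.5% and 26.7%, difference 10.84 points, SE 3.06, limma adjusted p = 0.17). The 3 promoter clusters of Ikzf1 itself were methylated in both series at 96.0% to 98.4%. They count as promoter by their distance to an annotated start, and whether that start is used in these cells was not tested. The paper lists Ikzf1 among promoters known to be hypersensitive to DNaseI in this system. The promoters of the methyltransferase Dnmt1 (0.230% and 0.324%) and of Uhrf1 (0.319% and 0.248%), which recruits it, were unmethylated in both.

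At the differing clusters, the same differences were largely seen in samples that were not used for the calls. Before induction, at 0 h, 166 of the 182 called clusters with values had the same direction, and the median size was 4.82 points, against 6.20 at 12 and 18 h for all 188. The clusters were chosen on the 12 and 18 h values. At 2 and 6 h, 180 of 182 had the same direction with a median of 5.12 points, and at 24 h 170 of 182 with 3.56 points. Without the library labelled Control 24 h replicate 2, the count at 24 h was 175 and the median 4.66 points. Without replicate 1 of Control at 0 h, the count at 0 h was 171 and the median 4.45 points. Both omissions were chosen after the data were seen. Samples of all times come from the same transduced pool of each series.

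**Figure D4:**
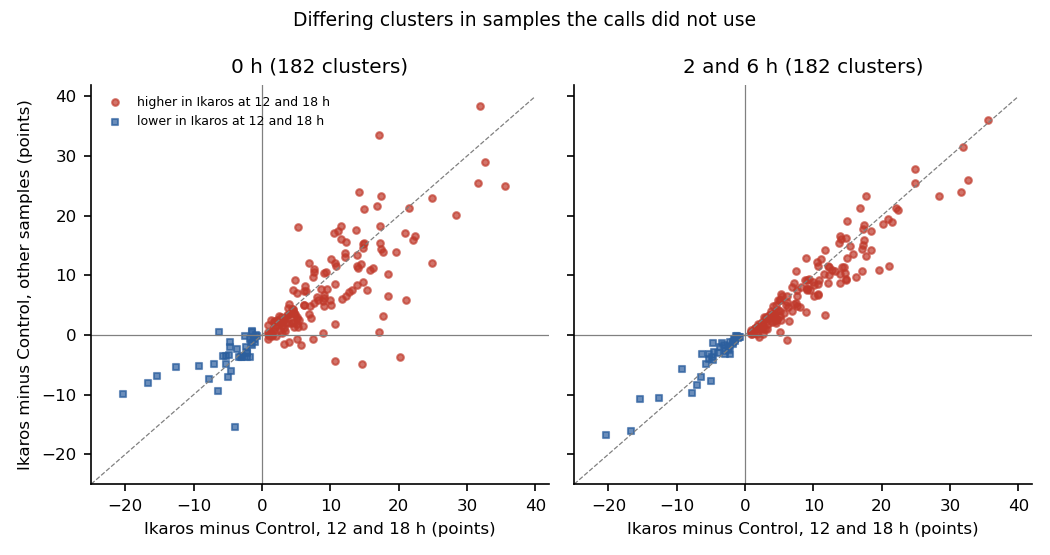
Ikaros minus Control difference in points of the called clusters at 0 h (left) and at 2 and 6 h (right), against the difference at 12 and 18 h. Each point is 1 of 182 clusters with values, the dashed line marks equal differences, and 166 and 180 points have the same sign on both axes.

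The series difference at 2 and 6 h was tested in the same way. It was called at 173 of 17672 clusters (0.979%), 136 higher and 37 lower in Ikaros. Of these, 81 were also called at 12 and 18 h, all in the same direction. This is 43.1% of the calls at 12 and 18 h and 46.8% of those at 2 and 6 h. Mllt3, Nol4l, Ephb6, Tnrc18, Atxn1 and Mycn were called in both. Ache (adjusted p = 0.071), Erg (0.067), Sirpa (0.17) and Plxnb2 (0.47) were not called by limma at 2 and 6 h, although their differences there, -10.74, 10.65, 10.87 and -5.74 points, had the same direction.

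Whether the difference changed was tested directly. The 0 h samples were batches 1, 2 and 4, so replicate 2 at 0 h was not of the batch of replicate 2 at 12 and 18 h. The paper states that the 0 h cells were obtained separately, and a batch difference in the change against 0 h was not tested. Against 0 h, the difference at 12 and 18 h changed at 0 of 16878 clusters in limma (0% called, 895 at an unadjusted p under 0.05). Against 2 and 6 h it changed at 0 of 17672 (712 unadjusted), and from 12 to 18 h at 0 of 17788 (745 unadjusted). On M-values all 3 counts were also 0. For single clusters the intervals were wide. The change against 0 h was fitted on the positions with a value in all 18 samples of 0, 12 and 18 h, while the difference given for 0 h itself is over the positions with a value in each sample, so that the change is not exactly the gap between the differences. For called clusters of 5 points or more, the 95% interval of the change reached a median of 7.75 points to either side, and 7.84 without replicate 1 of Control at 0 h. At Mllt3 the change was 10.64 points (95% interval -10.63 to 31.91), at Ephb6 -6.58 (-20.45 to 7.29) and at Ache -7.71 (-16.80 to 1.37). At the cluster near Insm1 it was 18.14 points (6.629 to 29.65), and at Plekhh1 12.81 (-0.14 to 25.76). Without replicate 1 of Control at 0 h, the change at Mllt3 was -2.76 points (-14.15 to 8.62), with the opposite sign. It was then -1.62 at Ephb6 (-14.52 to 11.29), -2.64 at Ache (-9.21 to 3.92), 13.73 near Insm1 (3.36 to 24.09) and 9.64 at Plekhh1 (-3.85 to 23.14), and none passed the adjusted threshold.

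The clusters with the smallest p in these tests did not pass. Against 0 h they were near Catsper1 (6.402 points) and at promoters of Dyrk1b (12.05), Scyl2 (-9.66), Chst15 (-7.99) and Zfp174 (-3.42), each with a limma adjusted p of 0.83. Without replicate 1 of Control at 0 h these changes were 6.796, 12.49, -9.37, -7.11 and -3.35 points, with limma adjusted p from 0.49 to 0.60. Dyrk1b was the member of this group that was also called at 12 and 18 h, with differences of 6.56 points at 0 h (6.38 without that replicate), 17.41 at 2 and 6 h, 15.74 at 12 h and 21.10 at 18 h. Against 2 and 6 h they were at Sdhb (-3.29), a subunit of succinate dehydrogenase that was itself called at 12 and 18 h (-4.71 points), Nrk (4.98), Gm11535 (10.25), Magi2 (-4.59) and Tchh (2.90), each with an adjusted p of 0.96. From 12 to 18 h they were at promoters of Kcnd3 (-12.28 points, adjusted p = 0.24), E430018J23Rik (-4.77, 0.24), Lyst (1.73, 0.32), Vps37d (-20.71, 0.41) and Pdcd4 (1.41, 0.44). Kcnd3 and Vps37d had differences of 11.04 and 11.13 points at 12 h and of -1.25 and -9.57 points at 18 h.

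**Figure D5:**
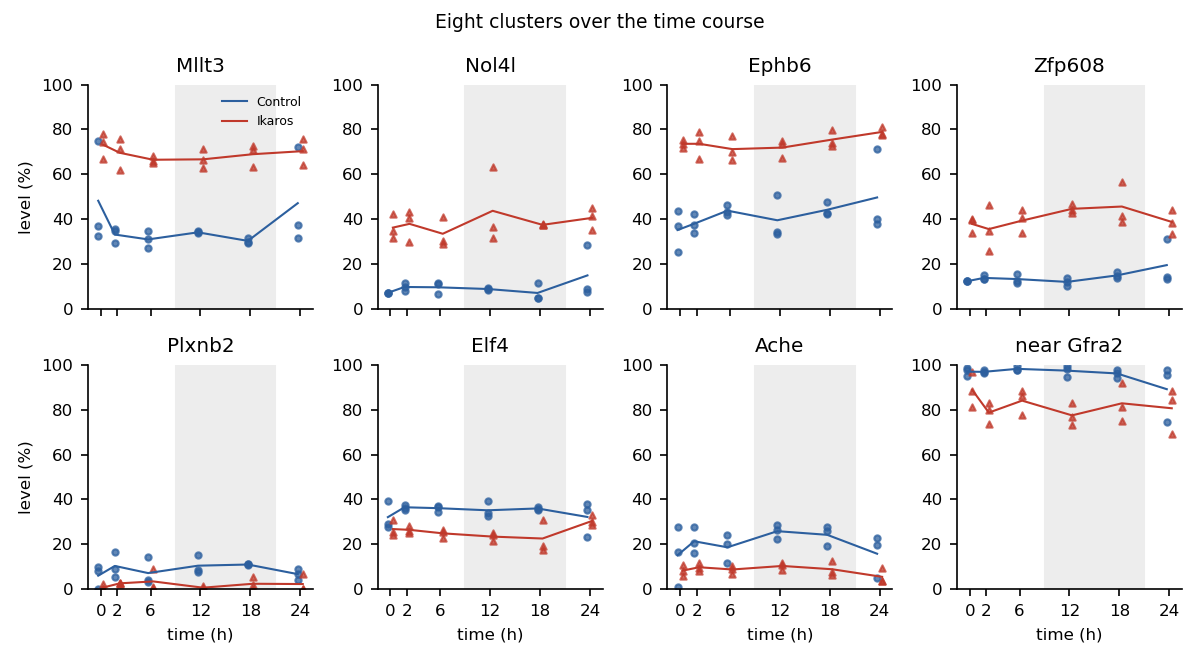
Cluster level in percent over the 6 time points for the 4 clusters with the largest positive difference without overlap (top row) and 4 of those with the largest negative one (bottom row). Points are samples (triangles Ikaros, circles Control), lines are the means of 3 samples and the grey band marks 12 and 18 h. The Mllt3 panel shows the 2 Control points near the Ikaros level, 74.97% at 0 h and 72.3% at 24 h.

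The sequence around the differing clusters was described by the 300 bases at the cluster centre. The core of the Ikaros binding motif, TGGGAA on either strand, was found in 16.1% of all 17788 windows. It was found in 14.2% of the 148 higher clusters and in 30% of the 40 lower clusters (12 clusters). None of the 5 sequences shown holds it. The median number of CpG dinucleotides per window was 27 over all clusters, 26 for the higher and 20 for the lower clusters, and that of CCGG was 4, 3 and 3. These counts are a description, without a test.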

How the data were processed

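The authors trimmed the RRBS reads, mapped them to GRCm38 (mm10) with Bismark 0.10.1, limited very high coverage, and used BiSeq for smoothing inside clusters of CpGs (bandwidth 80 bp). Per the labels, further tools were CASAVA, FastQC, HTSeq and methylKit. For 1116417 positions, the deposited smoothed level is a fraction from 0 to 1, multiplied here by 100. A second deposited table holds M-values (log2), made from levels limited to 0.01 to 0.99. Neither table holds coverage, so the depth is unknown and no counting error is given. Smoothing makes neighbouring positions alike and can move a sharp edge.

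All 36 sample columns were mapped by their names to the labels. Groups, time points and batches came from the labels, and the vectors and cultures from the methods of the study. The labels list 0.5 µM 4-OHT also at 0 h, where the methods describe untreated cells. Of the positions, 1047522 (93.8%) had a value in all 12 samples. Clusters were fitted in R 4.3.3 with limma 3.58.1 (lmFit, eBayes with a trend), and p-values were adjusted by Benjamini-Hochberg over all clusters tested. Exact permutation tests used Python 3.11.15 with numpy 2.4.6. The limma step was tested on simulated data. Replicates are batches of 1 cell line, so p-values measure the spread between these batches and flasks.

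Annotation is GENCODE M21, in the order promoter, coding exon, untranslated region, noncoding exon, intron and intergenic, where noncoding exon was added when the tables were read. Clusters were named by rule: the 12 higher and 12 lower calls with the largest differences without overlap, the 8 protein-coding promoters with the largest differences, called clusters of 5 points or more in the gene lists, and the 5 smallest p-values of each test of a change. A cluster picked by this rule is not reported here. The comparison, lists and rules were chosen with earlier results of these data known. The replicate numbers pair samples because the labels tie each number to a batch at these times. The correlation of the deviations from the group means averaged -4.1e-04 over 18 pairs of the same number and 2.6e-04 over 36 pairs of different numbers, and none of the 18 was over 0.1. Alternatives were other variance models, M-values, the replicate block, covariates, cluster rules and omitted samples.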

Additional observations from a re-analysis of the deposited data

Results flagged for a closer look

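Among the 6 samples of a series, 1 value was set far from the other 5 at 5 of the differing clusters named. At the clusters picked by the naming rule 56 sets of 6 values were examined, and 82 sets with the mean levels and sample qualities. The rule passes about 1 set in 20 by chance. At Nol4l, replicate 3 of Ikaros at 12 h had 63.3%, with 37.6% as the next value. At Tnrc18, replicate 1 of Ikaros at 12 h had 81.5%, with 87.9% next. Near Gpr161, replicate 2 of Control at 18 h had 51.7%, with 66.7% next. Near Tspear, replicate 1 of Control at 18 h had 70.0%, with 63.4% next. At Plxnb2, replicate 3 of Ikaros at 18 h had 5.27%, with 1.85% next. All 5 clusters remained called without the sample named, and no sample recurs among the 5.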

How the results depend on the processing

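The number of called clusters, 188, depended on the fit. With no variance trend, the replicate block or means of 12 and 18 h the fitted difference is the same number, so no direction could change. The direction was the same at all 188 on M-values and with the covariate, at 187 of 188 when all positions with a value were used and at 181 of 182 with positions complete in all 36 samples, which the selection of the clusters on the same samples largely fixes. The count was 123 on M-values, 14 for means of 12 and 18 h (4 of the 28 picked by the naming rule were called there), 54 with the share of levels at exactly 0 or 100% as a covariate, 0 for 12 h alone (1334 at an unadjusted p under 0.05), 0 for 18 h alone (1365) and 2942 for 1047522 single positions. With the replicate block, 145 were called, 135 of them among the 188, and of the 28 clusters picked by the naming rule Lhfp, Bcor, Elf4 and the one near Tc2n lost their call in this paired fit and 24 kept it. Clusters named outside the rule that lost it were the second at Atxn1 and Gm8973 (limma adjusted p = 0.058 each). With no variance trend the count was 232, and at clusters of 5 to 95% mean level 266 of 4166. Leaving out 1 sample or 1 replicate number gave 7 to 151 calls. It was 117 without Ikaros 12 h replicate 2, 120 without Control 12 h replicate 1, 125 without Control 12 h replicate 2, 125 without Ikaros 18 h replicate 3, and 16, 16 and 7 without replicates 1, 2 and 3, fits with fewer samples. Of the 28 clusters picked by the naming rule, 21 were called without any 1 of the 12 samples. Among the others, Lhfp and Bcor lost their call without 7 of the samples, Gas8 without 8, Gm49427 without 9, near Tc2n without 10 and Elf4 without 11, at adjusted p up to 0.099.

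The change from 12 to 18 h had 1 call without Ikaros 12 h replicate 1, 1 without Ikaros 12 h replicate 3 and 0 without any other 1 of the 12 samples. The changes against 0 h and against 2 and 6 h had 0 calls in every alternative, including 0 h without Control replicate 1, added after the data were seen (1023 at an unadjusted p under 0.05). For the change against 0 h, the replicate block joined batch 2 at 0 h with batch 3 at 12 and 18 h as replicate 2, so it was not a full pairing by batch. The mean level over all clusters differed by 0.0758 in M-values (exact p = 0.065), by 0.384 points with the replicate block (exact p = 0.03125, the smallest that 64 assignments allow) by 0.384 points as means of 12 and 18 h per culture, an alternative added after the data were seen (exact p = 0.1, the smallest that 20 assignments allow), and by 0.313 to 0.446 points without each sample.

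On M-values, 97 calls were at protein-coding promoters, 12 intergenic, 18 unmethylated and higher, 17 unmethylated and lower, and 0 partly methylated and lower. With class limits of 10 and 90%, 87 were partly methylated and higher, 10 partly methylated and lower, 28 methylated and higher, and 3 methylated and lower. The other class counts stayed within 1.5 times. The causes were not tested.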
